A study of Mus musculus with 27 samples.

Results

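Guanylate-binding proteins (GBPs) are large GTPases of interferon-stimulated cells, and 8 of their genes, Gbp2, Gbp3, Gbp4, Gbp5, Gbp6, Gbp7, Gbp8 and Gbp9, were followed across 27 RNA-seq libraries of cultured mouse microglia. The genes were chosen by name, 8 of the 23995 genes in the table, and all 8 were among the 14668 genes tested, those that reached 10 normalised counts in 3 or more libraries. Microglia are the macrophages that live in the brain, and here they were shaken off mixed glial cultures of neonatal cortex and left to rest before treatment. Wild-type cells were of strain C57BL/6J, and the cells labelled CB2-/- were of strain B6.Cg-Cnr2tm1Zim, which carries a targeted allele of the gene for cannabinoid receptor CB2. Each genotype was left unstimulated or received one of 3 stimuli for 16 h. The first combined LPS at 100 ng/ml, a bacterial glycolipid that the receptor TLR4 detects, with interferon-γ at 20 ng/ml. The second was PolyI:C, which mimics viral double-stranded RNA and is detected by TLR3. The third was CpG at 1 nmol/ml, DNA detected by TLR9. There were 6 unstimulated wild-type libraries and 3 libraries in each of the other 7 groups. Whether replicates are separate animals or cultures is not in the labels, and p-values therefore cover only the spread among these libraries, which may be technical.

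GBPs are made in response to interferons. Interferon-γ acts through its receptor and JAK kinases on promoters with GAS elements, and also through IRF1, while type I interferon acts through its own receptor on promoters with ISRE elements. The proteins bind GTP, assemble into coats on the vacuoles of intracellular parasites and on bacteria, and help the caspase-11 and AIM2 inflammasomes to sense what those vacuoles and bacteria release. Some members carry a C-terminal prenyl group, as Gbp2 and Gbp5 do, which anchors them to membranes.

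Values are the authors' normalised counts, and changes are differences ± SE of log2(value + 1), a scale on which changes of low genes are understated. The summed value per library ran from 6341299 to 14151982, and 13628 to 20643 genes were above 0. Gm19220, Gm26822 and Grip2 together held at most 0.00453% of that sum in series A, as defined next, and 0.0741 to 50.8% in series B, with the highest share in CB2-/- PolyI:C replicate 2. Without that library 7 of 8 GBP genes were called with PolyI:C in that genotype, as with it. Between LPS with interferon-γ and PolyI:C 7 were called in place of 8, as was so without any other 1 of those 6 libraries. The part of this difference between series in the results below was not tested. Library numbers in the titles were sorted here into 2 series, which the labels do not name as batches. Unstimulated wild-type replicates 1 to 3 and every stimulated wild-type library carry numbers 3012 to 3023 (series A), while unstimulated wild-type replicates 4 to 6 carry 2186 to 2188 and every library labelled CB2-/- carries 2048 to 2059 (series B). For this reason wild-type responses use replicates 1 to 3 as their baseline, and the genotypes without stimulus are compared within series B. Numbers 2186 to 2188 are not continuous with 2048 to 2059, and whether those libraries were handled together is not in the labels. Cnr2, the targeted gene, was at 172 to 233 in unstimulated wild type, 0 to 21.96 in stimulated wild type and 217 to 454 in the libraries labelled CB2-/-. A value per gene checks nothing where the counted part lies outside the deletion, so each direction between genotypes below rests on the labels. Microglial markers were measured for 8 of 8 genes and summed to between 22094 and 78244, against 50.7 to 2670 for 8 astrocyte genes. In wild-type cells given LPS with interferon-γ every library lay below unstimulated replicates 1 to 3 for Cx3cr1, Csf1r, Tmem119, P2ry12 and Trem2 and above them for Aif1 (1914 ± 172 against 1182 ± 154, SD, n = 3 each) and Itgam (19879 ± 607 against 12429 ± 1958, SD, n = 3 each). Of 6 listed marker genes of T and NK cells, which make interferon-γ, 0 were measured, so these cells could not be looked for. In these bulk samples fewer cells of a type and less RNA per cell cannot be told apart.

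The 8 genes lie in 2 clusters in GENCODE M21 (GRCm38). Gbp5, Gbp7, Gbp3 and Gbp2 follow one another on the plus strand of chromosome 3, from 142493978 to 142638008. Gbp8, Gbp9, Gbp4 and Gbp6 lie on the minus strand of chromosome 5, from 105014150 to 105293698. The annotated span of Gbp8 (105014150 to 105139540) holds that of Gbp9 (105077630 to 105139539) and most of that of Gbp4 (105115767 to 105139586), so reads of these 3 genes may not always be separable. The genes also share sequence. Gbp6 shared 74.3% of the 31-base words of its transcripts with other genes, 67.8% with the gene model Gm43302. The share was 31.1% for Gbp8, 18.3% for Gbp9, 14.9% for Gbp4, 14.7% for Gbp7, 5.64% for Gbp3, 4.85% for Gbp2 and 3.10% for Gbp5. Over 75 bases, the read length, the share stayed high for Gbp6, at 67.3%, and was 11.3% for Gbp7 and 8.04% for Gbp8. Values of Gbp6, and to a lesser degree of Gbp8, Gbp9, Gbp4 and Gbp7, are therefore uncertain to the extent that reads were divided among copies.

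Promoters are shown for the chromosome 3 genes, all of which rose under LPS with interferon-γ and under PolyI:C in wild type. RefSeq sequence (GRCm38.p6) was matched for 4 of the 8 members: Gbp2, Gbp3, Gbp5 and Gbp7. Each line starts 250 bases before the annotated start site and runs 5′ to 3′ on the plus strand. The windows are chr3:142620413-142620631 for Gbp2, chr3:142496684-142496929 for Gbp5, chr3:142559794-142560043 for Gbp3 and chr3:142530086-142530335 for Gbp7. Capitals mark matches to GAS (TTCNNNGAA) or ISRE (GAAA, any 2 bases, GAAA), searched on both strands; these are the members that the sequence table holds.
Gbp2: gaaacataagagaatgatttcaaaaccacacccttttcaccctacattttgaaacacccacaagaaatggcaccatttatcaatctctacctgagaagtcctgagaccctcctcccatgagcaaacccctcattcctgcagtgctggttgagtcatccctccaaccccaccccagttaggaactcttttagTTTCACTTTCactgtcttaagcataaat
Gbp5: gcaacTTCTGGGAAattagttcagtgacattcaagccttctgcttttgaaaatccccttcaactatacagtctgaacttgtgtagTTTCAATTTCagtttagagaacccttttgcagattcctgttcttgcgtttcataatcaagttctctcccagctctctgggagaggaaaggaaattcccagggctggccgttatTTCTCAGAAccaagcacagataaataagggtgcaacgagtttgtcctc
Gbp3: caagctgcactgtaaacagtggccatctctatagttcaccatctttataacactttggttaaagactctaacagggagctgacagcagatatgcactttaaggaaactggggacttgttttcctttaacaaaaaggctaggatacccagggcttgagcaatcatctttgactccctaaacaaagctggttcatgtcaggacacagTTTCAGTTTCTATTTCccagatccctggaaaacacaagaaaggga
Gbp7: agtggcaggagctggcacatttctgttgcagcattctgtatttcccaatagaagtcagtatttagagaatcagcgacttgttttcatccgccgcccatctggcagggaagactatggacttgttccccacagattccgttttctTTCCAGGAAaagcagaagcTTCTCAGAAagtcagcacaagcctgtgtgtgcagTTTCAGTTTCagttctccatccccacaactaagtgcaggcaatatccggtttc
Each of the 4 windows held an ISRE match, all of them on the minus strand, so the lines show the reverse complement. The match lay 59 to 50 bases before the start site in Gbp2, 165 to 156 in Gbp5 and 53 to 44 in Gbp7. Gbp3 held an overlapping pair, at 45 to 36 and 39 to 30 bases before the start, and its second annotated start site held no match to either motif. GAS matches were in Gbp5, at 245 to 237 and 52 to 44 bases before the start, and in Gbp7, at 106 to 98 and 87 to 79 bases before it. Among 32851 promoter windows of 300 bases, 3.44% held an ISRE match, 8.3% a GAS match and 0.454% both. A match describes letters and is not a measured binding site.

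**Figure D1:**
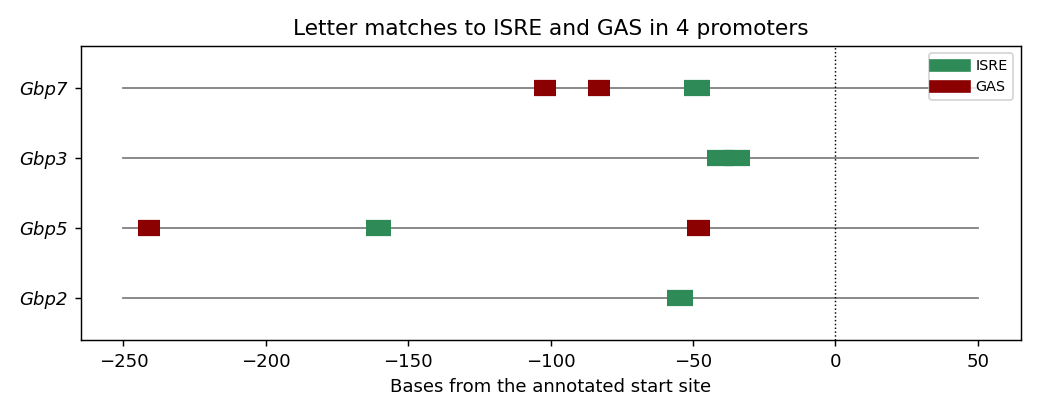
Letter matches to ISRE (green) and GAS (red) by distance in bases from the annotated start site (dotted line), from 250 bases before to 50 after it, in the promoters of Gbp2, Gbp5, Gbp3 and Gbp7. All 4 hold an ISRE match, and Gbp5 and Gbp7 hold 2 GAS matches each.

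In unstimulated wild type the 8 genes were low. Gbp9 was the most abundant per kb of merged exons, with 38.9% of the summed per-kb level of the 8 genes in replicates 1 to 3, and Gbp2 followed with 27.3%. After each stimulus, in both genotypes, Gbp2 ranked first, with 48.6 to 56.1% of that sum. In wild type under LPS with interferon-γ its per-kb level was 16032 ± 982 (SD, n = 3). Gbp4 came second, at 3784 ± 189 per kb (SD, n = 3), and Gbp8 last, with 0.426% of the sum. With PolyI:C in wild type Gbp3 came second, at 1219 ± 4.72 per kb (SD, n = 3), and Gbp4 was last but one with 3.74% of the sum. The per-kb levels of Gbp6, Gbp9 and Gbp7, which followed one another after Gbp5, differed between neighbours by less than the sum of their SDs. Merged exons of all annotated transcripts set these lengths, and which transcripts were counted is not given in the sources used here.

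**Figure D2:**
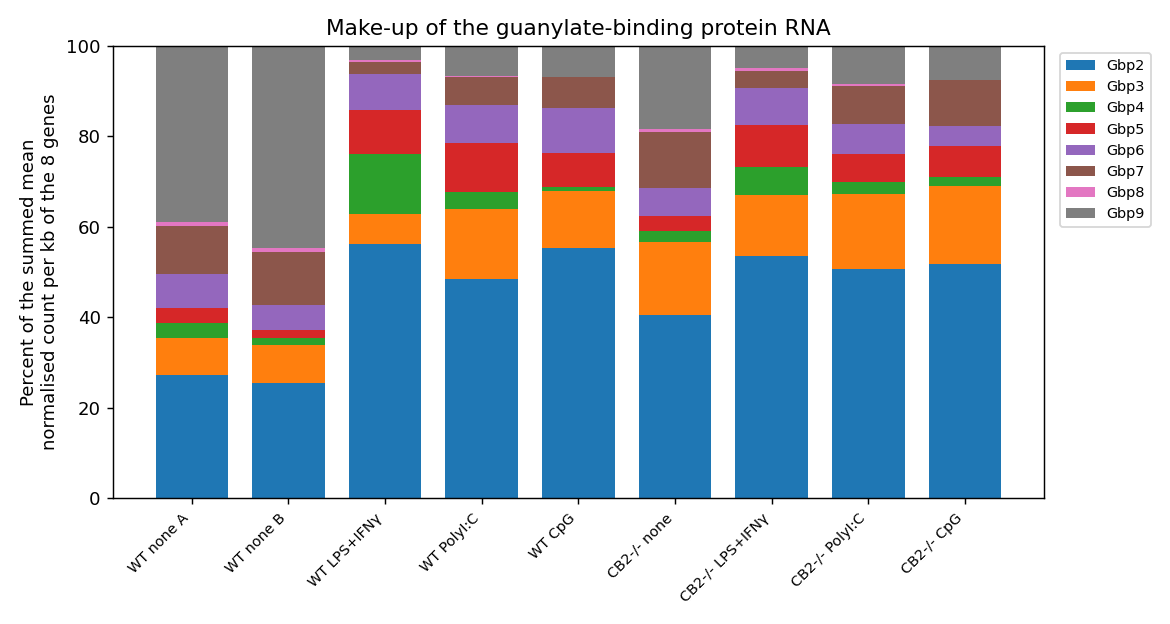
Stacked bars give each gene's share, in percent, of the summed mean normalised count per kb of the 8 genes in each group of 3 libraries ("none" is unstimulated, A and B the number series). Gbp9 holds the largest share in unstimulated wild type and Gbp2 in the other 7 groups, with 40.5% in unstimulated cells labelled CB2-/-.

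LPS with interferon-γ raised all 8 genes in wild type. Gbp2, which coats vacuoles and bacteria, stood at 53.5, 159 and 150.1 in unstimulated replicates 1 to 3 and at 37899, 40269 and 42841 with the stimulus. Gbp4, which has been linked to the regulation of IRF7, went from 21.8, 54.3 and 49.3 to 26728, 29277 and 29076. Gbp5, a member linked to NLRP3, went from 16.7, 37.7 and 63.8 to 16658, 18509.8 and 19502. No stimulated library overlapped an unstimulated one for any of the 8 genes, and the unstimulated spread was wide, with replicate 1 lowest for each gene named here. The share of all genes tested without such overlap was not counted. The ratio of mean levels was 679 for Gbp4, 463 for Gbp5 and 333 for Gbp2. In the fit across all genes 8 of 8 members were called higher, against 21.7% of the genes tested (limma, Benjamini-Hochberg, BH). The log2 changes ran from 3.70 ± 0.13 for Gbp9 to 9.47 ± 0.31 for Gbp4, with a median of 7.53 where the median of all genes was 0.05. The largest adjusted p was 2.34e-06, for Gbp8 (6.47 ± 0.90). Gbp8 was listed at 0, 10.1 and 8.34 in unstimulated replicates 1 to 3 and reached 341, 480.2 and 436. Leaving out unstimulated replicate 1 or 2 moved its change to 5.35 or 7.09. It moved that of Gbp3 (7.497 ± 0.43) to 6.54 or 8.08, and all these values kept their call.

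PolyI:C raised 7 of 8 genes in wild type, against 21.2% of genes tested, with a median log2 change of 5.76 over the 8 and -0.06 over all genes. Gbp5 had the largest change, 7.36 ± 0.53 (adjusted p = 3.17e-11, limma, BH), and its libraries read 5224, 5974 and 6279. Gbp3 followed at 6.84 ± 0.43, with closely placed libraries at 3983, 3962 and 3992. Gbp2 rose by 6.47 ± 0.33, to 8760.0, 10013 and 10424. The smallest change past the threshold was that of Gbp9, 2.96 ± 0.13, from 371, 306 and 387 to 3197, 2587 and 2547. Gbp8 read 21.3, 11.04 and 16.1, above its unstimulated libraries, with a log2 change of 1.82 ± 0.90 that missed the threshold (adjusted p = 0.112, limma, BH). Without unstimulated replicate 1 or 2 the change of Gbp3 was 5.88 or 7.42. The change of Gbp8 passed the threshold when all 6 unstimulated libraries formed 1 group (2.06), and also in the authors' batch-corrected table.

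**Figure D3:**
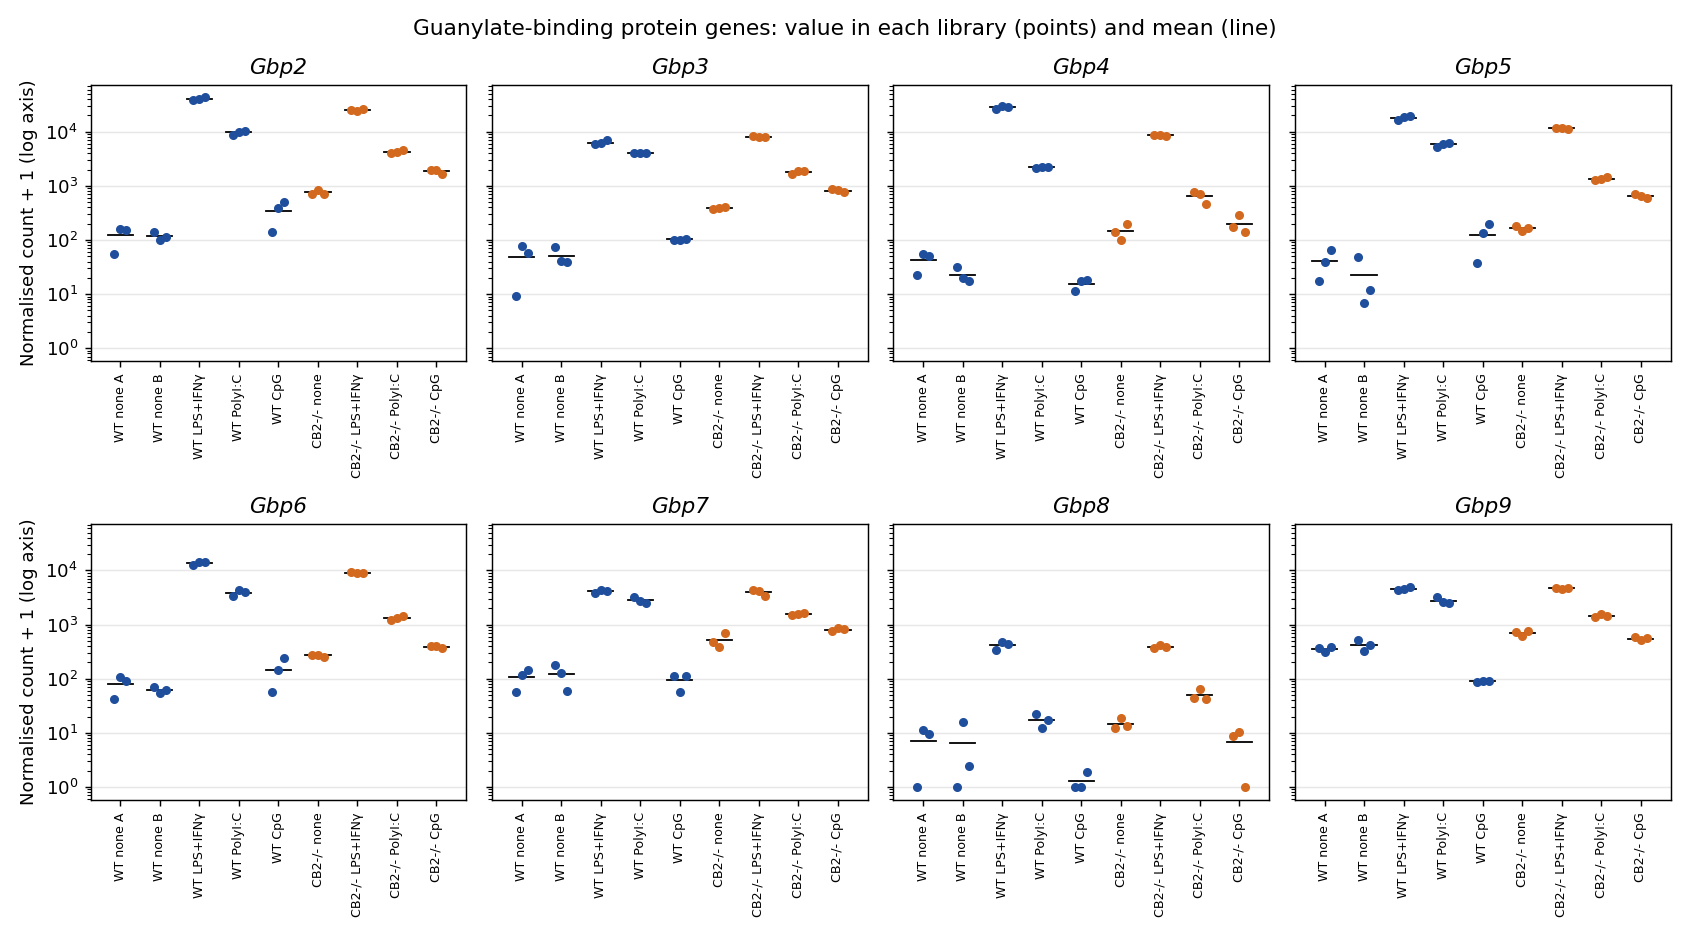
Normalised count + 1 (log axis) of each gene in each of the 27 libraries (points, wild type blue, CB2-/- orange) with the mean of each group of 3 (line). In every panel the LPS with interferon-γ libraries lie above the PolyI:C libraries of the same genotype, and the wild-type CpG libraries lie below unstimulated replicates 1 to 3 for Gbp4 and Gbp9. How many of all genes tested separate in these ways was not counted.

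LPS with interferon-γ and PolyI:C were compared directly, with no unstimulated library in the contrast. All 8 genes had every LPS with interferon-γ library above every PolyI:C library, in wild type and in cells labelled CB2-/-. How many of all genes tested separated like this was not counted. In wild type 5 of 8 were called higher with LPS and interferon-γ, against 5.35% of genes tested. The difference was largest for Gbp8, 4.64 ± 0.90 (adjusted p = 0.00106, limma, BH), whose mean was 419 ± 71.0 against 16.2 ± 5.14 (SD, n = 3 each). Gbp4 differed by 3.67 ± 0.31 (adjusted p = 1.42e-08, limma, BH), with libraries of 26728 to 29277 against 2165 to 2267, a ratio of means of 12.7. Gbp2 differed by 2.05 ± 0.33, Gbp6 by 1.84 ± 0.32 and Gbp9 by 0.73 ± 0.13. Gbp6 has been tied to defence against intracellular bacteria, as has Gbp7, which acts with the NADPH oxidase. Gbp7 (0.54 ± 0.33, adjusted p = 0.382), Gbp3 (0.66 ± 0.43, adjusted p = 0.422) and Gbp5 (1.65 ± 0.53, adjusted p = 0.0504) missed the threshold (limma, BH). Their levels read 3809.7, 4337 and 4196 against 3276, 2780.1 and 2479 for Gbp7. Gbp3 read 5899, 6073 and 6903 against the 3 PolyI:C values above. The 95% intervals of the differences were -0.14 to 1.22 for Gbp7, -0.23 to 1.54 for Gbp3 and 0.56 to 2.73 for Gbp5. When only these 6 libraries entered the fit, 8 of 8 genes were called higher. Gbp5 also passed with a pseudocount of 10, a minimum of 50, quantile scaling, library weights or the batch-corrected table. The summed normalised count of the 4 chromosome 3 genes was 3.08 times as high with LPS and interferon-γ as with PolyI:C, and that of the 4 chromosome 5 genes 5.31 times. Both sums are free of reads moved between members of the same cluster. They are not free of reads shared with genes outside the 8, as Gbp6 may share with Gm43302 (67.8% of its 31-base words). Beside this result, summed astrocyte markers were 719 to 863 with LPS and interferon-γ and 50.7 to 581 with PolyI:C. Summed markers of monocytes and neutrophils (5 of 6 measured, 2 of them at 0 throughout in each group) were 62.2 to 80.3 and 235 to 356. Their part in the result was not tested.

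In cells labelled CB2-/- 8 of 8 genes were called higher with LPS and interferon-γ than with PolyI:C, against 6.95% of genes tested. Gbp4 again differed by more than 3 on the log2 scale, 3.75 ± 0.31, with libraries at 8829, 8589 and 8461 against 783, 712 and 466. Gbp5 differed by 3.08 ± 0.53, at 11483, 11679.8 and 11438 against 1294, 1322 and 1465. Gbp8 differed by 2.997 ± 0.90 (adjusted p = 0.0290, limma, BH), at 366, 413 and 391 against 42.7, 62.98 and 40.8, and its call was lost without any 1 of these 6 libraries. The remaining differences ran from 1.34 ± 0.33 for Gbp7 to 2.78 ± 0.32 for Gbp6. The contrast between the stimuli differed between genotypes for 1 gene, Gbp9, against 4.62% of genes tested higher. It was wider by 0.94 ± 0.19 in cells labelled CB2-/- (adjusted p = 0.00165, limma, BH). Gbp9 read 4289, 4607 and 4912 against 3197, 2587 and 2547 in wild type and 4748, 4548 and 4812 against 1401, 1543 and 1462 in cells labelled CB2-/-, so the LPS with interferon-γ libraries of the genotypes overlapped and the PolyI:C libraries did not. For Gbp4 the difference between genotypes was 0.09 ± 0.43, with a 95% interval of -0.81 to 0.98. This count rose to 7 of 8 (6 wider, and Gbp8 narrower) when only the 12 libraries compared entered the fit, and fell to 0 when a call also needed a log2 difference of at least 1.

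**Figure D4:**
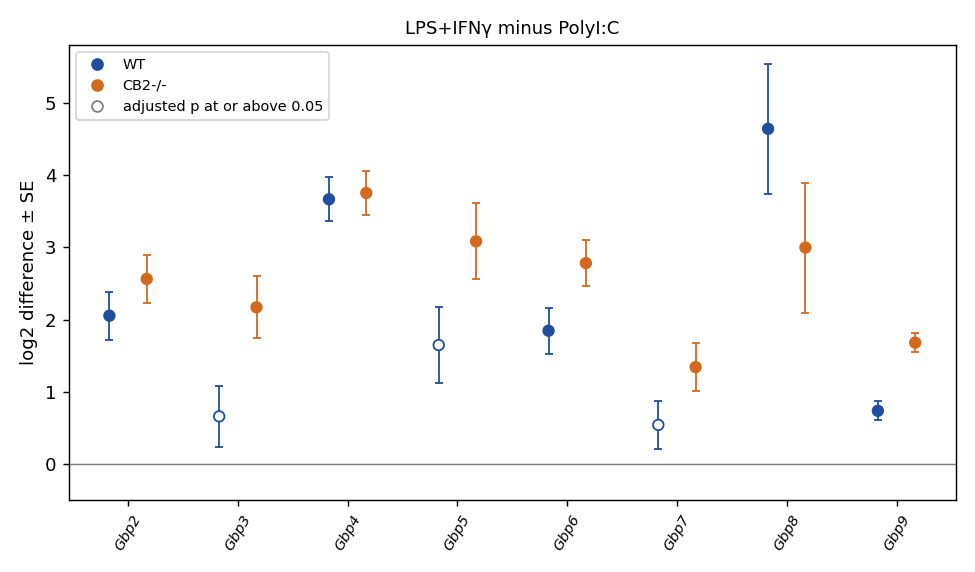
Log2 difference ± SE between LPS with interferon-γ and PolyI:C for each gene, in wild type (blue) and in cells labelled CB2-/- (orange), with open circles for an adjusted p at or above 0.05. All 16 values lie above 0, from 0.54 for Gbp7 in wild type to 4.64 for Gbp8 in wild type.

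CpG gave calls in both directions in wild type, most of which depended on the libraries in the fit. It raised Gbp2, Gbp3 and Gbp5 (3 of 8, against 16.5% of genes tested) and lowered Gbp4 and Gbp9 (2 of 8, against 19.6%). Gbp9 read 84.3, 88.9 and 90.5, below its unstimulated libraries of 306 to 387, a fall of 1.99 ± 0.13 on the log2 scale (adjusted p = 2.00e-11, limma, BH). Gbp4 read 10.5, 16.2 and 17.05 against 21.8 to 54.3, a change of -1.38 ± 0.31. Gbp3 read 99.5, 99.0 and 105 against 8.19, 77.3 and 57.4, a change of 1.55 ± 0.43. Gbp2 read 138, 394 and 493, which overlapped its unstimulated libraries, a change of 1.45 ± 0.33. Gbp5 read 35.9, 132 and 199 and also overlapped, a change of 1.49 ± 0.53 (adjusted p = 0.0298, limma, BH). Its call was lost without unstimulated replicate 1 (0.99) or without CpG replicate 2 (1.28) or 3 (0.98), while without CpG replicate 1 it was 2.20. Without unstimulated replicate 1 the change of Gbp2 was 0.95 and that of Gbp3 0.60, and without replicate 2 that of Gbp3 was 2.14. With only the 6 libraries compared in the fit, Gbp9 alone kept its call. Gbp8 was listed at 0, 0 and 0.875 with CpG, and its difference passed the threshold without unstimulated replicate 1 (-3.05). The difference was 0.78 ± 0.32 for Gbp6, which passed without unstimulated replicate 2 (1.03), without CpG replicate 1 (1.33) and with quantile scaling (1.02). It was -0.14 ± 0.33 for Gbp7, and 0.0334 with quantile scaling. The summed level of the chromosome 3 genes was 2.11 times that of unstimulated replicates 1 to 3, and that of the chromosome 5 genes 0.517 times. In cells labelled CB2-/- 2 of 8 genes were called higher with CpG, against 6.82% of genes tested, Gbp2 (1.30 ± 0.33) and Gbp5 (1.98 ± 0.53). Their libraries read 1993, 1927 and 1653 for Gbp2 and 699.6, 651 and 588 for Gbp5, above all unstimulated libraries of that genotype. Without a call, Gbp3, Gbp6 and Gbp7 also lay above all of theirs, and Gbp8 and Gbp9 below. How many of all genes tested separated in this way was not counted. With only the 6 libraries of this comparison in the fit 5 genes were called higher and Gbp9 lower.

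Both other stimuli gave higher levels than CpG. LPS with interferon-γ exceeded CpG for 8 of 8 genes in wild type (19.7% of genes tested) and in cells labelled CB2-/- (6.36%), by a median of 6.93 and 3.96 on the log2 scale. PolyI:C exceeded CpG for 8 of 8 genes in wild type (17.6%), by a median of 5.00. In cells labelled CB2-/- it did so for 5 of 8 (6.39%), with Gbp3, Gbp5 and Gbp7 at adjusted p of 0.0876, 0.220 and 0.0598 (limma, BH). Without CB2-/- CpG replicate 3 that count was 3, as Gbp2 (1.12) and Gbp8 (2.36) missed the threshold, and Gbp2 missed it too without CB2-/- PolyI:C replicate 3 (1.14).

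Unstimulated cells labelled CB2-/- held more GBP RNA than unstimulated wild type of the same number series. The numbers of the genotypes form separate runs within that series, and a shared batch is not in the labels. Gbp2 read 708, 839 and 716 against 142, 98.2 and 112. Gbp3 read 374, 380.4 and 412 against 72.6, 40.5 and 38.4. Gbp5 read 177, 145 and 167 against 47.5, 5.76 and 10.7. For these 3 genes no library of one genotype overlapped the other, nor did the wild-type replicates 1 to 3 of series A reach the libraries labelled CB2-/-. The share of all genes tested that separated in this way was not counted. Of the 8 genes 7 were called higher, against 6.25% of genes tested, with Gbp5 first (3.38 ± 0.53), then Gbp3 (2.98 ± 0.43), Gbp2 (2.69 ± 0.33) and Gbp4 (2.67 ± 0.31). Gbp7 was higher by 2.19 ± 0.33, Gbp6 by 2.12 ± 0.32 and Gbp9 by 0.76 ± 0.13 (adjusted p = 0.000460, limma, BH). Gbp8 read 11.1, 17.6 and 12.4 against 0, 15.1 and 1.39, and its difference of 2.10 ± 0.90 missed the threshold (adjusted p = 0.151, limma, BH), but passed it without wild-type replicate 5 (3.22). Gbp9 missed it with only these 6 libraries in the fit, and the value of Gbp5 was 4.20 or 2.77 without wild-type replicate 4 or 5. Between the 2 wild-type series 0 of 8 genes were called (limma, BH), where 12% of all genes were, and 2 of 8, Gbp4 and Gbp5, had an unadjusted p under 0.05; leaving out replicate 1, 4 or 5 gave 1, 2 or 1 called. Beside this result, summed astrocyte markers were 210.4 to 310.4 in unstimulated cells labelled CB2-/- and 1590 to 2670 in wild-type replicates 4 to 6. Summed fibroblast and meningeal markers were 58.3 to 93.4 and 691 to 2475. Unstimulated wild-type replicates 1 to 3 held 205 to 1074 and 13.4 to 2891. Their part in the result was not tested.

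The responses of most GBP genes to LPS with interferon-γ and to PolyI:C were smaller in cells labelled CB2-/-, whose unstimulated levels were higher. LPS with interferon-γ raised 8 of 8 genes there, against 12.8% of genes tested, by 2.74 ± 0.13 (Gbp9) to 6.14 ± 0.53 (Gbp5). PolyI:C raised 7 of 8, against 5.11%, by 1.06 ± 0.13 (Gbp9) to 3.06 ± 0.53 (Gbp5), and Gbp8 changed by 1.76 ± 0.90 (adjusted p = 0.279, limma, BH). The response to LPS with interferon-γ was smaller than in wild type for 7 of 8 genes, where 8.36% of genes tested were lower. Gbp4 differed by -3.53 ± 0.43 and Gbp2 by -3.46 ± 0.47, and the other called genes by -3.12 to -0.96. The response to PolyI:C was smaller for the same 7 genes, where 13.9% of genes tested were lower, with Gbp3 (-4.63 ± 0.60) and Gbp5 (-4.30 ± 0.74) first and Gbp9 (-1.91 ± 0.19) last. Without unstimulated wild-type replicate 1 or 2 the values of Gbp3 were -2.16 or -3.70 for LPS with interferon-γ and -3.67 or -5.21 for PolyI:C. Gbp8 differed by -1.71 ± 1.27 and -0.06 ± 1.27, and neither passed the threshold. The response to CpG was higher for 2 of 8 genes, Gbp4 (1.83 ± 0.43) and Gbp9 (1.64 ± 0.19), against 6.11% of genes tested. The call of Gbp4 was lost with only the 12 libraries compared in the fit and without the series term (1.40). These differences set responses measured in series A against responses measured in series B.

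**Figure D5:**
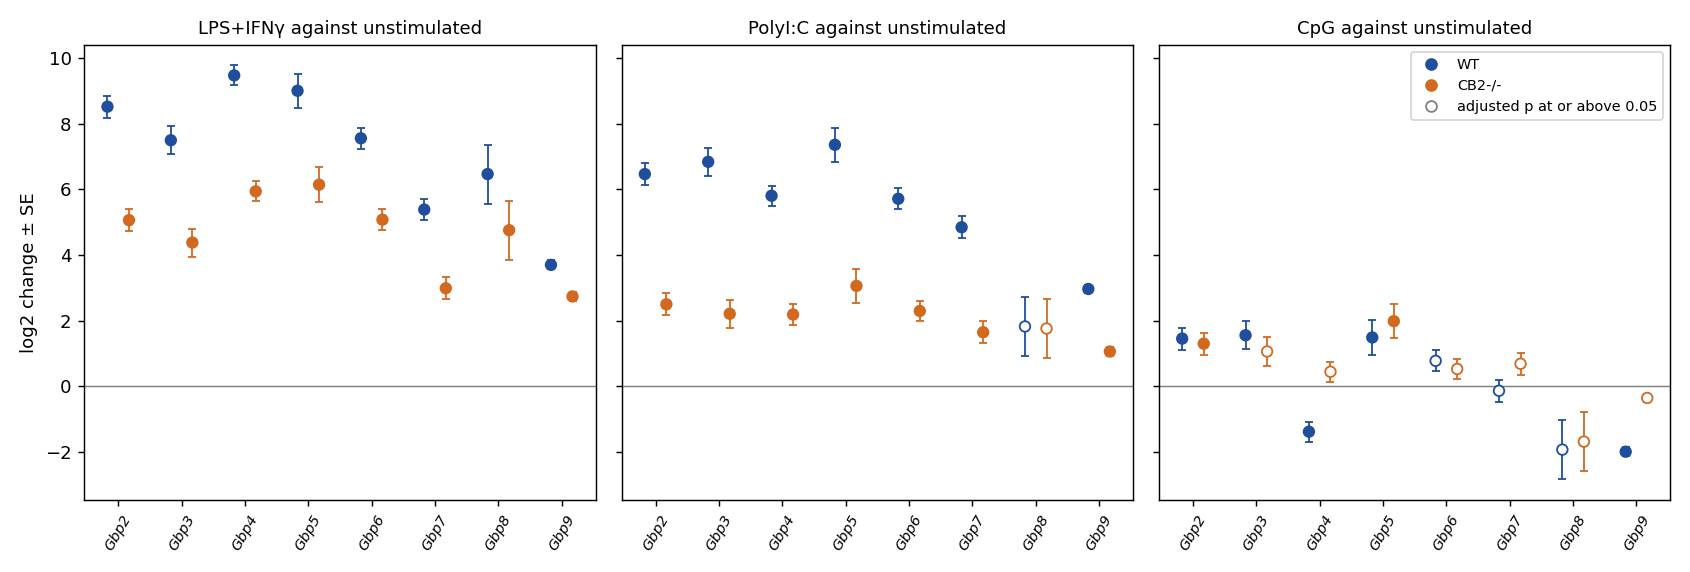
Log2 change ± SE against unstimulated cells for each gene and stimulus, in wild type (blue, against replicates 1 to 3) and in cells labelled CB2-/- (orange), with open circles for an adjusted p at or above 0.05. Wild-type changes lie above those of cells labelled CB2-/- for all 8 genes under LPS with interferon-γ and under PolyI:C. For Gbp8 neither genotype difference passed the threshold (-1.71 ± 1.27 and -0.06 ± 1.27).

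Levels under a stimulus are given side by side without a test, since genotype and number series cannot be told apart there. With LPS and interferon-γ all libraries labelled CB2-/- lay below wild type for Gbp2, Gbp4, Gbp5 and Gbp6, as for 27.4% of genes tested, and all lay above for Gbp3, as for 19.2%. Gbp2 read 24782, 24520.5 and 26171, and Gbp3 8225, 8000.4 and 8080.0. The genotypes overlapped for Gbp7, Gbp8 and Gbp9. The ratio of wild-type to CB2-/- means was 3.29 for Gbp4 and 1.52 to 1.60 for Gbp2, Gbp5 and Gbp6. With PolyI:C all libraries labelled CB2-/- lay below wild type for 7 genes, as for 21.5% of genes tested, with a ratio of 4.28 for Gbp5 and 1.81 for Gbp7. Gbp8 lay above, as 19.4% of genes did. With CpG they lay above for 7 genes, as for 20.3%, and Gbp8 overlapped. Beside these levels, summed astrocyte markers in wild type and in cells labelled CB2-/- were 719 to 863 and 260.2 to 332.7 with LPS and interferon-γ, 50.7 to 581 and 253 to 375 with PolyI:C, and 100.1 to 1409 and 179 to 244 with CpG. Summed fibroblast and meningeal markers were 527 to 821 and 40.4 to 67.3, then 50.4 to 904.5 and 29.7 to 95.3, then 12.1 to 2111 and 27.4 to 60.4, in the same order. Their part in these levels was not tested.

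Other GBP genes outside the 8 were measured as well. Gbp2b, next to Gbp2 on chromosome 3 (142594847 to 142619179), read 81.6, 99.2 and 93.1 under LPS with interferon-γ in wild type, against 0, 1.44 and 1.45 under PolyI:C. Gbp10, in the chromosome 5 cluster, read 733, 727 and 712 against 28.2, 91.7 and 57.4. Gbp11, annotated as a polymorphic pseudogene, read 79.6, 70.9 and 119 against 2.01, 10.3 and 11.1. All 3 were called higher with LPS and interferon-γ than with PolyI:C in wild type (5.66 ± 0.69, 3.75 ± 0.95 and 3.57 ± 0.80). The share of all genes tested was 5.35%. In cells labelled CB2-/- 2 of these 3 genes were called higher, against 6.95% of genes tested. Gm43302, the gene model with which Gbp6 shares most of its words, read 348, 427 and 484 with LPS and interferon-γ and 0, 0 and 49.3 with PolyI:C in wild type. Gm43802, the gene model closest to Gbp7 in shared words, read 219.9, 149.3 and 201.4 against 226.5, 147.3 and 159.4, so these groups overlapped.

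The immunity-related GTPases (IRGs) are a second family of interferon-induced GTPases that work at the same vacuoles. A list of IRG genes and Gvin1, which was added beside that family and not as a member, was measured for 9 genes. All 9 were called higher under LPS with interferon-γ and under PolyI:C in wild type, against 21.7% and 21.2% of genes tested. With the first 7 of 9 were higher than with the second, against 5.35% of genes tested. Tgtp1 differed most between these stimuli (3.59 ± 0.83), then Iigp1 (2.96 ± 0.54), while Ifi47 (0.68 ± 0.24, adjusted p = 0.0763) and Gvin1 (0.13 ± 0.33, adjusted p = 0.884) missed the threshold (limma, BH). The median of the 9 was 0.99, against 1.75 for the 8 GBP genes and 0.05 for all genes. With CpG in wild type 2 of these 9 genes were higher and 5 lower, against 16.5% and 19.6% of genes tested. Without stimulus 8 of 9 were higher in cells labelled CB2-/-, against 6.25% of genes tested, with Tgtp2 (3.70 ± 0.49) and Iigp1 (3.49 ± 0.54) first. Between the 2 unstimulated wild-type series 5 of 9 were called higher in series A, with a median of 0.64. Of all 14668 genes tested 830 were called higher in series A, and 12% were called in either direction.

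Of 12 genes of interferon-γ signalling 9 rose and 1 fell in wild type with LPS plus interferon-γ, and likewise with PolyI:C. Of all 14668 genes tested 21.7% rose and 2644 fell with the first stimulus, and 21.2% rose and 2924 fell with the second. Irf1, which acts on GBP promoters, rose by 4.66 ± 0.20 with the first and 1.94 ± 0.20 with the second and differed between the stimuli by 2.72 ± 0.20. Irf8 rose with LPS and interferon-γ (1.60 ± 0.25) and not past the threshold with PolyI:C (-0.41 ± 0.25), and the difference was 2.00 ± 0.25. Ciita, the activator of MHC class II genes, differed by 5.37 ± 0.78. The receptor chain Ifngr1 fell by 2.47 ± 0.11 and 1.82 ± 0.11. CpG lowered Irf1 (-1.39 ± 0.20) and Irf8 (-1.32 ± 0.25). Without stimulus Irf1 differed by 0.22 ± 0.20 between genotypes, which missed the threshold (adjusted p = 0.559, limma, BH).

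Of 15 genes of the type I interferon pathway and its sensors 12 rose in wild type under LPS with interferon-γ and 11 under PolyI:C. The shares of all genes tested were 21.7% and 21.2%. Compared directly, 785 of 14668 genes tested were higher with the first stimulus than with the second and 573 were lower. Of the 15 genes 1 was higher and 4 were lower. The higher one was Ifnb1, which encodes interferon-β (3.01 ± 0.92, adjusted p = 0.0406, limma, BH), and it did not pass the threshold with PolyI:C (1.48 ± 0.92). Tlr3 rose with both stimuli, by 1.45 ± 0.21 and 2.64 ± 0.21, and fell with CpG by 1.90 ± 0.21. Of 12 genes for TLR4, TLR9 and their adaptors 6 rose and 2 fell with LPS and interferon-γ. Tlr4 fell with all 3 stimuli (-1.42 ± 0.22, -1.60 ± 0.22 and -1.84 ± 0.22). Tlr9 fell with PolyI:C (-1.52 ± 0.21) and CpG (-2.91 ± 0.21), and its change with LPS and interferon-γ was 0.25 ± 0.21.

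Of 10 inflammasome and pyroptosis genes linked to GBPs, 9 rose in wild-type cells given LPS plus interferon-γ, against 21.7% of genes tested. PolyI:C raised 8 of the 10 there, against 21.2% of genes tested, and lowered 1, where 2924 of 14668 were called lower. Casp4, which encodes caspase-11, rose by 3.45 ± 0.24 and 3.32 ± 0.24 and did not differ past the threshold between them (0.12 ± 0.24, adjusted p = 0.845, limma, BH). Aim2, a DNA sensor that Gbp2 and Gbp5 help to activate, rose by 0.45 ± 0.17 and 0.88 ± 0.17 and fell with CpG by 1.12 ± 0.17. In this list 1 of 10 genes was higher with LPS and interferon-γ than with PolyI:C, against 5.35% of genes tested. Further lists held genes that place or modify GBPs. Of 10 ATG8 conjugation genes 3 rose and 1 fell with LPS and interferon-γ, and of 6 prenylation genes 1 rose, against 21.7% of genes tested called higher. Of 7 ubiquitin ligases and adaptors 4 rose, among them Trim21 by 2.63 ± 0.19 and Rnf213 by 2.55 ± 0.15, and 1 fell, Calcoco1 (-2.01 ± 0.20).

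Likeness to the GBP genes was measured as the root mean square difference, over 27 libraries, between a gene's centred log2 values and the median of the 8 members. Among genes that are no members the nearest were AW112010 (0.58), the IRG gene Ifi47 (0.63), Gm28347 (0.81), Gm4951 (0.87), Slamf8 (0.91), Cxcl10 (0.97), Oasl1 (0.97) and Batf2 (1.00). The members themselves lay between 0.37 (Gbp6) and 1.53 (Gbp8) from that median, with Gbp2 at 0.40, Gbp3 at 0.64 and Gbp9 at 1.43. Gbp8 and Gbp9 were farther from the median profile than all of these 8 other genes. Gbp3, Gbp5 (0.91), Gbp7 (0.92) and Gbp4 (0.94) were farther than some of them. The 8 were picked as the smallest distances among all other genes tested, so this order follows in part from that choice.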

How the data were processed

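RNA of 27 libraries was sequenced as single-end reads of 75 bases, and groups come from the labels. The labels' protocols describe TruSeq v2 and SMART-Seq2 libraries and do not say which library used which. Tools named in the submitters' processing notes include CASAVA 1.8 and kallisto; a genome build is not given in the sources used here. Normalised gene counts, as the authors deposited them, were handled as a signal, since 45.9 to 67.7% of low values per library came out whole and reads could not be recovered. The depth in reads is therefore unknown. A batch-corrected table, also by the authors, was handled as a score and served only as an alternative.

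The 14668 genes reaching a value of 10 in 3 or more libraries were fitted as log2(value + 1) with limma 3.58.1 under R 4.3.3 (two-sided moderated tests with a trended prior). The 27 libraries formed 9 groups of 3, unstimulated wild type being split by number series. P-values were adjusted by Benjamini-Hochberg over all genes, and a call needed an adjusted p under 0.05. All 8 members are named in every comparison. From each list up to 4 called genes per comparison could be named, by size of change, and Irf1, Irf8, Ifngr1, Tlr3, Tlr4, Tlr9, Ifnb1, Casp4 and Aim2 always, besides the 8 genes nearest the members. One further gene of that panel is not reported here. Ifi47 and Gvin1 (as the genes of the list of IRGs and Gvin1 that missed a threshold), Gm43302 and Gm43802 were picked with their values in view. Promoters were to be those of the members most and least different between LPS with interferon-γ and PolyI:C; the 4 with an entry are shown instead. The members and lists were chosen with earlier results of these data known.

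Positions and transcript words of 31 and 75 bases come from GENCODE M21, in which 23933 of 23995 identifiers were found without their version. Motifs were searched in RefSeq windows of 300 bases, and printed lines stop where over 30 bases of annotated exon would show. No replicates were merged. In data simulated for LPS with interferon-γ against PolyI:C in wild type (14668 genes, 50 changed per size) the fit recovered 17, 42, 50 and 50 genes changed 1.5, 2, 4 and 8-fold and called 9 others. A single dispersion, 0.0242, was used for all genes, and genes of low level were not among those changed. This recovery therefore need not hold for low or more variable genes such as Gbp8. Alternatives were pseudocounts of 0.5 and 10, no minimum or one of 50, quantile scaling, no series term, fits of the compared libraries alone, library weights, a robust prior, calls that also need a log2 change of at least 1, the batch-corrected table, and the removal of single libraries. Figures used matplotlib 3.10.9 in Python 3.11.15.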

Additional observations from a re-analysis of the deposited data

Results flagged for a closer look

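In unstimulated wild type Gbp3 was far below the other 5 libraries in replicate 1, at 8.19 normalised counts, with a gap on the log2(value + 1) scale of 0.680 of the range of the 6 libraries. Chance gives such a gap in about 1 of 20 groups, and this was the only one among the 8 genes, each looked at from both ends of the 6 libraries.

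Responses of these genes differed between genotypes by a test of the difference itself (limma, BH), and each sets series A against series B. For LPS with interferon-γ against PolyI:C this held for Gbp9 (0.94). For the response to LPS with interferon-γ the differences, CB2-/- minus wild type, were -3.46 for Gbp2, -3.12 for Gbp3, -3.53 for Gbp4, -2.86 for Gbp5, -2.48 for Gbp6, -2.40 for Gbp7 and -0.96 for Gbp9. For PolyI:C they were -3.97 for Gbp2, -4.63 for Gbp3, -3.62 for Gbp4, -4.30 for Gbp5, -3.42 for Gbp6, -3.20 for Gbp7 and -1.91 for Gbp9. For CpG they were 1.83 for Gbp4 and 1.64 for Gbp9.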

How the results depend on the processing

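Counts of members called kept within 1.5 times of the reported count under every setting not named here. For LPS with interferon-γ against PolyI:C in wild type the count was 8 with only the libraries compared, and 5 without each library in turn. For its difference between genotypes it was 2 with a pseudocount of 10, 7 with only the libraries compared, 4 with library weights, 5 in the batch-corrected table and 0 with the fold threshold. For the difference in CpG response it was 1 without the series term and 1 with only the libraries compared. For CpG in wild type it was 1 with only the libraries compared, and 4 to 6 without each library in turn. For CpG in cells labelled CB2-/- it was 6 with only the libraries compared, 6 with library weights and 5 in the batch-corrected table. For PolyI:C against CpG in cells labelled CB2-/- it was 8 with library weights, 8 in the batch-corrected table and 3 to 5 without each library in turn. For the number series in wild type it was 1 with quantile scaling, 2 with library weights and 0 to 2 without each library in turn (1 without replicate 1, 2 without replicate 4 and 1 without replicate 5). The cause was not tested.

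Among single members the sign turned for Gbp7 with CpG in wild type (0.0334 with quantile scaling, and -0.53 to 0.20 without single libraries, at 0.14 without unstimulated replicate 3). It turned for Gbp4 in the genotype difference of LPS with interferon-γ against PolyI:C (-0.14 to 0.23 without single libraries). It turned for Gbp8 in the genotype difference of the PolyI:C response (0.56 with a pseudocount of 10, 0.83 with library weights, 0.30 in the batch-corrected table, and -0.68 to 1.05 without single libraries). None of these 3 passed the threshold in the reported fit. With 1 library left out, over the member values recomputed (all 8 members except in the CpG response difference, where only Gbp4 and Gbp9 were, and the number series, where none was), 912 values kept their sign and call, 8 turned sign, 4 gained and 12 lost the call.

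With quantile scaling, the median change over all genes (log2) went from 0.05 to -0.06 for LPS with interferon-γ in wild type and from -0.09 to 0.05 for CpG. It went from 0.15 to -0.13 for LPS with interferon-γ against CpG, from 0.02 to -0.13 for PolyI:C against CpG and from 0.10 to -0.02 for the difference in CpG response. Genes higher and lower went from 2887 and 1925 to 2122 and 2737 for LPS with interferon-γ against CpG in wild type and from 933 and 560 to 810 and 893 in cells labelled CB2-/-. They went from 2578 and 1834 to 1985 and 2268 for PolyI:C against CpG in wild type, from 750 and 504 to 678 and 787 for PolyI:C in cells labelled CB2-/-, and from 584 and 1226 to 813 and 1002 for the difference in LPS response. No paired analysis was possible because the labels give no replicate numbers. The depth in reads is unknown, so values under about 10, as for Gbp8, carry no interval.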
